A study of Mus musculus with 7 samples.

Results

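The genes described are 10 of the 53819 gene symbols in a table of estimated counts from mouse quadriceps: the frizzled receptors Fzd1, Fzd4, Fzd7 and Fzd9, the coreceptors Lrp5 and Lrp6, the ligand Wnt5a, the secreted modulators Dkk3 and Sfrp1, and the feedback inhibitor Axin2. They were taken by symbol, and all 10 were found and passed the filter on low counts. The list was selected on earlier results of the same comparison, its fold changes and calls in these 7 libraries, so the differences of the 10 genes between the groups are given as a description, with no p.

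All mice were male C57BL/6J of wild-type genotype. They were 8 weeks old when 200 µl of vector was injected into the tail vein, and the muscle was taken 54 days later. AAV8 is a serotype of adeno-associated virus with a preference for liver cells. In the AAV8-IGFBP1 group (3 libraries) the vector was AAV8-Alb-IGFBP1. In the AAV8-Null group (4 libraries) it was AAV8-Alb-Null, so the controls carry a vector too. IGFBP1 is a secreted protein that binds insulin-like growth factors, and Alb in the vector's name is the symbol of albumin, a gene of hepatocytes; the labels say no more about its promoter. The labels number the libraries but do not say that each came from a separate mouse, so any p given here reflects the spread among 7 libraries, part of which may be technical.

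Wnt proteins are secreted lipid-modified ligands that bind frizzled receptors on the cell surface. Together with LRP5 or LRP6 a frizzled receptor stops the breakdown of beta-catenin, which then turns on target genes with TCF and LEF factors, while other frizzled signals act on cell polarity and calcium without beta-catenin. In skeletal muscle the pathway is known for its roles in satellite cells (the muscle stem cells), in fibre formation and at the neuromuscular junction.

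Library totals ran from 38947453 to 51210360 rounded counts. Igfbp1 had 4.39, 34.5 and 3.14 CPM (counts scaled to a common library total) in AAV8-IGFBP1 replicates 1, 2 and 3, against 0, 0, 0 and 0.195 CPM in AAV8-Null replicates 1 to 4 (two-sided exact permutation p = 0.0286, which is as small as 35 splits can give). The quasi-likelihood test across all genes did not call it (edgeR adjusted p = 0.138). A count of 0 allows up to 0.0596, 0.0580 and 0.0786 CPM in AAV8-Null replicates 1, 2 and 3, a limit that covers counting error only. On the first principal component of all tested genes (27.2% of the variance) the groups did not overlap. AAV8-IGFBP1 replicates 1, 2 and 3 lay at -12.6, -45.2 and -8.24, and the AAV8-Null libraries at 11.9 to 25.7. AAV8-IGFBP1 replicate 2 thus lay apart from the rest, and it also held the most adipocyte marker RNA. The muscle markers Acta1, Ckm, Mb, Myh4, Myh1, Tnnt3 and Ttn, 5 of 7 with a log2 fold change above 0, summed to 143239 to 157520 CPM in AAV8-IGFBP1 and 129159 to 147076 CPM in AAV8-Null, far above every other marker list. Schwann cell markers were lower without overlap (31.0 to 36.8 CPM in AAV8-IGFBP1 and 37.7 to 54.9 CPM in AAV8-Null), and the summed tenocyte and macrophage markers overlapped. The 7 smooth muscle and pericyte markers (Acta2, Myh11, Tagln, Cnn1, Rgs5, Cspg4 and Pdgfrb) summed to 217 to 237 CPM in AAV8-IGFBP1 and 221 to 293 CPM in AAV8-Null, most of it Rgs5 (160 to 176 CPM in AAV8-IGFBP1 and 147 to 203 CPM in AAV8-Null). The median log2 fold change of these 7 was -0.64, with 1 above 0, and Tagln was called lower (log2 fold change -1.10, edgeR adjusted p = 0.00778). Acta2 lay lower without overlap but was not called (log2 fold change -1.20, edgeR adjusted p = 0.0780). No marker of these lists was at 0 counts in any library.

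Of the 10 genes, Fzd4 and Dkk3 rose in AAV8-IGFBP1 muscle and the other 8 did not pass the quasi-likelihood test of edgeR over 14935 genes, with the adjusted p set at 0.05. Fzd4 was 1.68-fold higher and Dkk3 1.77-fold higher. Over all genes tested, 0.556% were called, 0.362% as higher and 0.194% as lower. DESeq2 and limma-voom called the same 2 genes, where DESeq2 called 3.28% of all genes (1.57% as higher and 1.71% as lower) and limma-voom 0.415% (0.295% as higher and 0.121% as lower). In 3 of the 10, Fzd4, Dkk3 and Fzd9, the groups did not overlap, as was the case for 12.3% of all genes (6.33% higher and 6.01% lower). Since the genes were chosen with this contrast in view, nothing follows from these shares. The log2 fold change was above 0 in 6 genes and below 0 in 4, with a median of 0.05, beside a median of -0.00 over all genes tested.

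**Figure D1:**
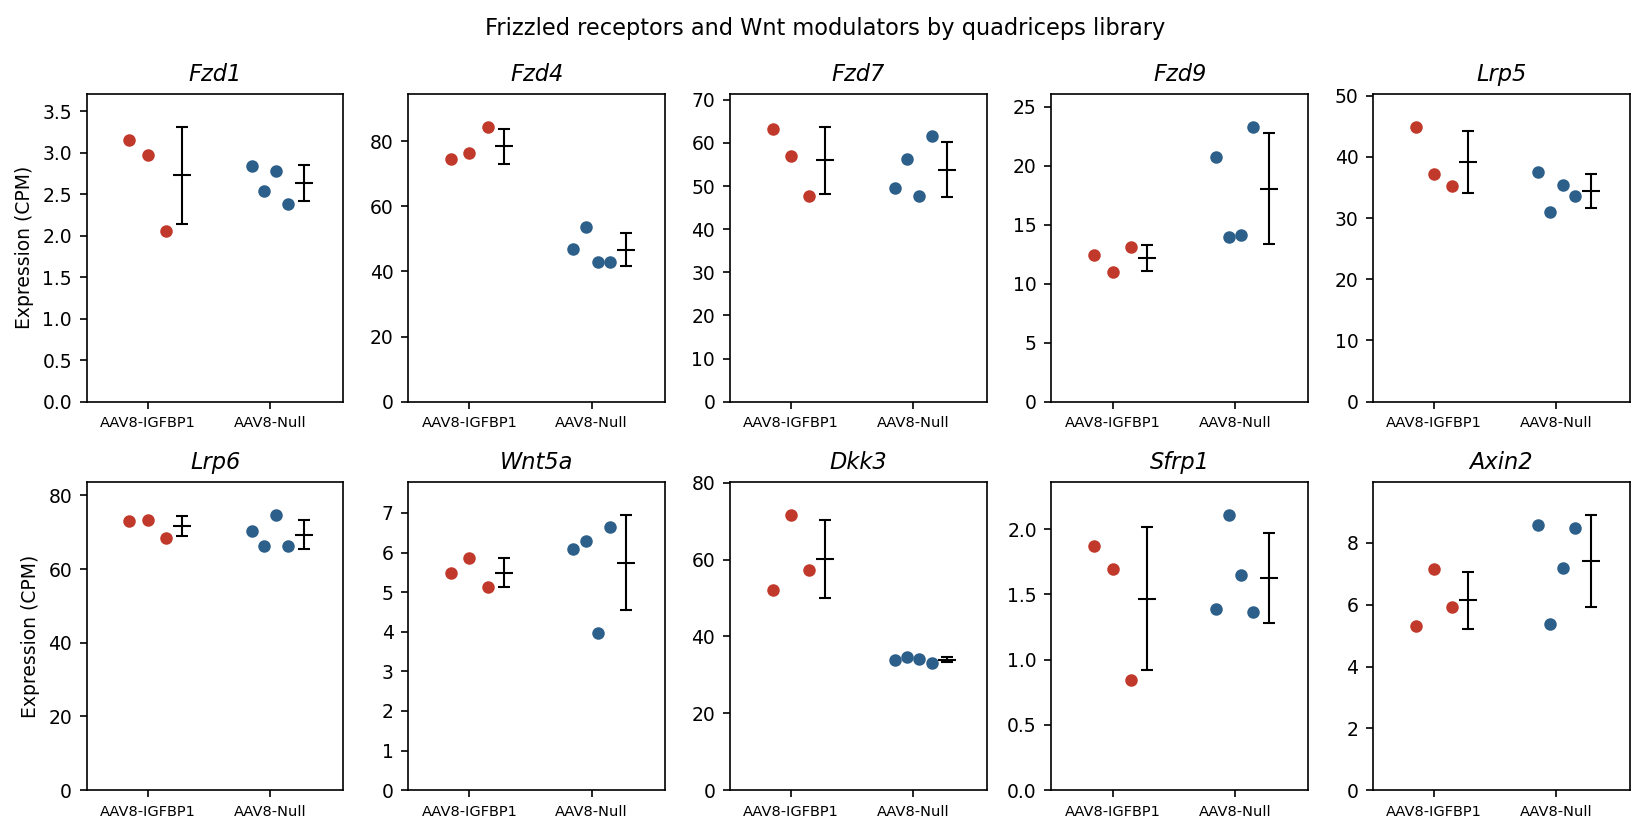
Expression in CPM (vertical axes, each starting at 0) of the 10 genes in each quadriceps library. Points are libraries, AAV8-IGFBP1 (red, n = 3) and AAV8-Null (blue, n = 4), and bars give the mean and SD; the groups stand apart for Fzd4, Dkk3 and Fzd9 and overlap for the other 7.

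Fzd4 encodes a frizzled that serves Wnt ligands and, in retinal vessels, the unrelated ligand Norrin. It had 74.5, 76.2 and 84.5 CPM in AAV8-IGFBP1 replicates 1, 2 and 3, against 46.9, 53.8, 43.0 and 43.0 CPM in AAV8-Null replicates 1 to 4. Every AAV8-IGFBP1 library lay above every AAV8-Null library, with a gap wider than the spread within either group. The means were 78.4 ± 5.33 CPM in AAV8-IGFBP1 and 46.7 ± 5.07 CPM in AAV8-Null (SD, n = 3 and 4), and the log2 fold change was 0.75 (SE 0.09, 95% interval 0.58 to 0.92). It remained called without each of the 7 libraries in turn, with a log2 fold change of 0.69 to 0.83. The list was selected on these libraries, so such calls are no separate support for Fzd4 or, below, Dkk3. Vessels are a site of Fzd4 in other tissues, and the 7 endothelial markers Pecam1, Cdh5, Kdr, Tek, Tie1, Emcn and Esam summed to 179 to 191 CPM in AAV8-IGFBP1 and 182 to 224 CPM in AAV8-Null. None of these 7 had a log2 fold change above 0, and none was at 0 counts in any library. The part of endothelial cells in the Fzd4 values was not tested.

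Fzd9 is a frizzled gene that has been studied in mice at the neuromuscular junction and in bone. It had 12.4, 10.98 and 13.1 CPM in AAV8-IGFBP1 replicates 1, 2 and 3, against 20.8, 14.0, 14.1 and 23.3 CPM in AAV8-Null replicates 1 to 4. The AAV8-IGFBP1 libraries were all lower, but AAV8-Null replicates 2 and 3 lay close to them while replicates 1 and 4 were high. The means were 12.2 ± 1.1 CPM in AAV8-IGFBP1 and 18.1 ± 4.73 CPM in AAV8-Null, and the log2 fold change of -0.57 (SE 0.20) did not pass the test. It ran from -0.67 to -0.42 with 1 library left out. The slow fibre markers Myh7, Tnnc1, Tnnt1, Tnni1, Myl2, Myl3 and Tpm3 summed to 201, 416 and 710 CPM in AAV8-IGFBP1 replicates 1, 2 and 3, against 1674, 528, 1053 and 1528 CPM in AAV8-Null replicates 1 to 4. AAV8-Null replicates 1 and 4 were thus the highest libraries for these markers as they were for Fzd9; all 7 markers had a log2 fold change below 0, none was called or at 0 counts, and their part in the Fzd9 values was not tested. In whole muscle, fewer cells of a type and less RNA per cell cannot be told apart.

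Fzd7, a receptor for Wnt7a on mouse satellite cells, and Fzd1 overlapped between the groups. Fzd7 had 63.3, 56.8 and 47.7 CPM in AAV8-IGFBP1 replicates 1, 2 and 3, against 49.6, 56.3, 47.8 and 61.6 CPM in AAV8-Null replicates 1 to 4. The log2 fold change of Fzd7 was 0.06 (SE 0.11, 95% interval -0.17 to 0.28). The scarce Fzd1 had 2.06 to 3.15 CPM in AAV8-IGFBP1 and 2.39 to 2.84 CPM in AAV8-Null, with a log2 fold change of 0.05 (SE 0.17, 95% interval -0.29 to 0.39). Without AAV8-IGFBP1 replicate 1 the log2 fold changes were -0.04 for Fzd7 and -0.07 for Fzd1, and without AAV8-IGFBP1 replicate 2 that of Fzd1 was -0.02, so neither had a settled sign. For Fzd7 the interval leaves out a change as large as that of Fzd4. The satellite cell markers Pax7, Myf5, Cdh15, Calcr, Sdc4, Vcam1 and Fgfr4 summed to 38.8 to 43.7 CPM in AAV8-IGFBP1 and 51.3 to 61.5 CPM in AAV8-Null. Of the 6 tested, 1 had a log2 fold change above 0 and 1, Sdc4, was called, as lower (log2 fold change -0.99). None of the 7 was at 0 counts in any library. Most of the sum was Cdh15 and Sdc4. Cdh15 was higher without overlap (20.4 to 24.1 CPM in AAV8-IGFBP1 and 17.8 to 19.8 CPM in AAV8-Null). Sdc4 had 14.0 to 15.1 CPM in AAV8-IGFBP1 and 24.0 to 36.1 CPM in AAV8-Null, so the gap in the sum was mainly that of Sdc4. The scarce Pax7, Fgfr4 and Calcr were also lower without overlap.

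The upstream sequences of Fzd4 and Fzd9 are shown because these are the frizzleds among the 10 whose groups did not overlap, 1 higher and 1 lower. RefSeq's promoter table (GRCm38.p6) matched 5 of the 10 genes by symbol, and the 250 bases before the annotated start of each were searched on both strands for the TCF and LEF core CTTTGA, the E-box CACGTG and the GC box GGGCGG. The Fzd4 bases are chr7:89404116-89404365 on the plus strand and the Fzd9 bases chr5:135251048-135251297 on the minus strand, in GRCm38.p6, written 5′ to 3′ in the direction of the gene. Capitals mark the GC boxes, read on either strand, and in Fzd9 also the E-box.
Fzd4: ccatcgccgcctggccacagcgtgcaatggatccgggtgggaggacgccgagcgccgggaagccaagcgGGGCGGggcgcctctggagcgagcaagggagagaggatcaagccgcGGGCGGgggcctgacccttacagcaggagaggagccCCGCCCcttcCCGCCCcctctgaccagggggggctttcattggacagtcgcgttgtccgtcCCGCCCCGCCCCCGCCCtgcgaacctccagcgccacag
Fzd9: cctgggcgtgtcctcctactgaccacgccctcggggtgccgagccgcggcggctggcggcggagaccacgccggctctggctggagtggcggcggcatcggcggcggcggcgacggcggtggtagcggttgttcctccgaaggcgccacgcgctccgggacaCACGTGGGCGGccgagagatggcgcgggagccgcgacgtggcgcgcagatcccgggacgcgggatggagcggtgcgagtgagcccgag
The Fzd4 stretch held 7 GC boxes, the first base of each at -181, -135, -99, -89, -38, -33 and -27 from the start, with an overlap of 1 base between those at -38 and -33. The Fzd9 stretch held 1 GC box at -83, which shares 1 base with an E-box at -88. The window of Fzd7, whose groups overlapped, held 6 GC boxes, that of Axin2 held 2 and that of Fzd1 held 0. Of 32851 such windows in the table, 32.7% held a GC box, 6.02% the E-box and 13.8% the TCF and LEF core. That core was found at -242 in Fzd1 and was not among the letters of the Fzd4, Fzd7, Fzd9 and Axin2 windows. G and C made up 72.8% of the Fzd4 window and 76.4% of the Fzd9 window. A match is a run of letters and not a shown binding site.

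**Figure D2:**
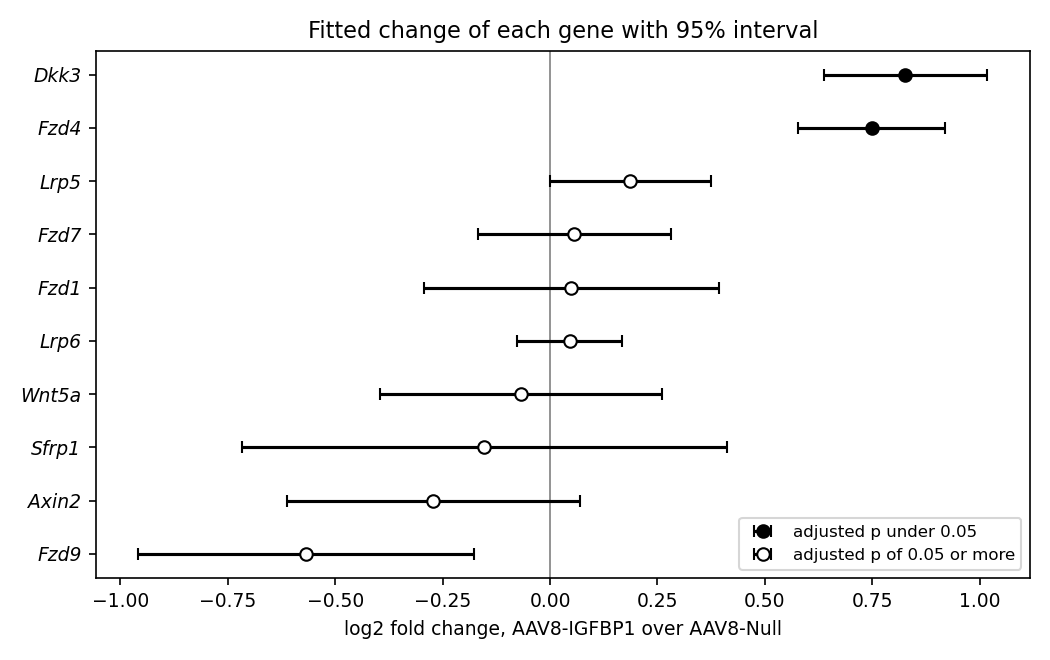
Fitted log2 fold change, AAV8-IGFBP1 over AAV8-Null, of each of the 10 genes (horizontal axis) with its nominal 95% interval from the approximate SE. The intervals are too narrow for so few libraries, and that of Lrp5 just clears 0 without a call. Filled points passed edgeR's test over all genes; Dkk3 (0.83) and Fzd4 (0.75) are filled and the other 8 are open.

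Levels of different genes can be set beside each other only per length, so the frizzled family was compared as CPM per kb of annotated exon. Over all 10 frizzled genes of the mouse, Fzd4, Fzd7 and Fzd9 together made up 90.9 ± 0.574% of the frizzled CPM per kb in AAV8-IGFBP1 and 89.3 ± 1.23% in AAV8-Null (SD, n = 3 and 4). Within this pool Fzd4 held 33.3%, 35.8% and 39.5% in AAV8-IGFBP1 replicates 1, 2 and 3, against 22.8%, 27.3%, 24.5% and 19.2% in AAV8-Null replicates 1 to 4. The share of Fzd4 was higher in every AAV8-IGFBP1 library than in any AAV8-Null library. Fzd9 held 15.1% to 18.0% in AAV8-IGFBP1 and 20.8% to 30.5% in AAV8-Null, and the share of Fzd7 overlapped, at 33.1% to 42.0% in AAV8-IGFBP1 and 35.7% to 42.4% in AAV8-Null. The ratio of Fzd4 to Fzd9, which does not depend on how libraries are scaled, was 2.20 ± 0.162 in AAV8-IGFBP1 and 0.936 ± 0.301 in AAV8-Null. The summed frizzled level overlapped, at 31.7 to 33.3 CPM per kb in AAV8-IGFBP1 and 26.1 to 33.4 CPM per kb in AAV8-Null.

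**Figure D3:**
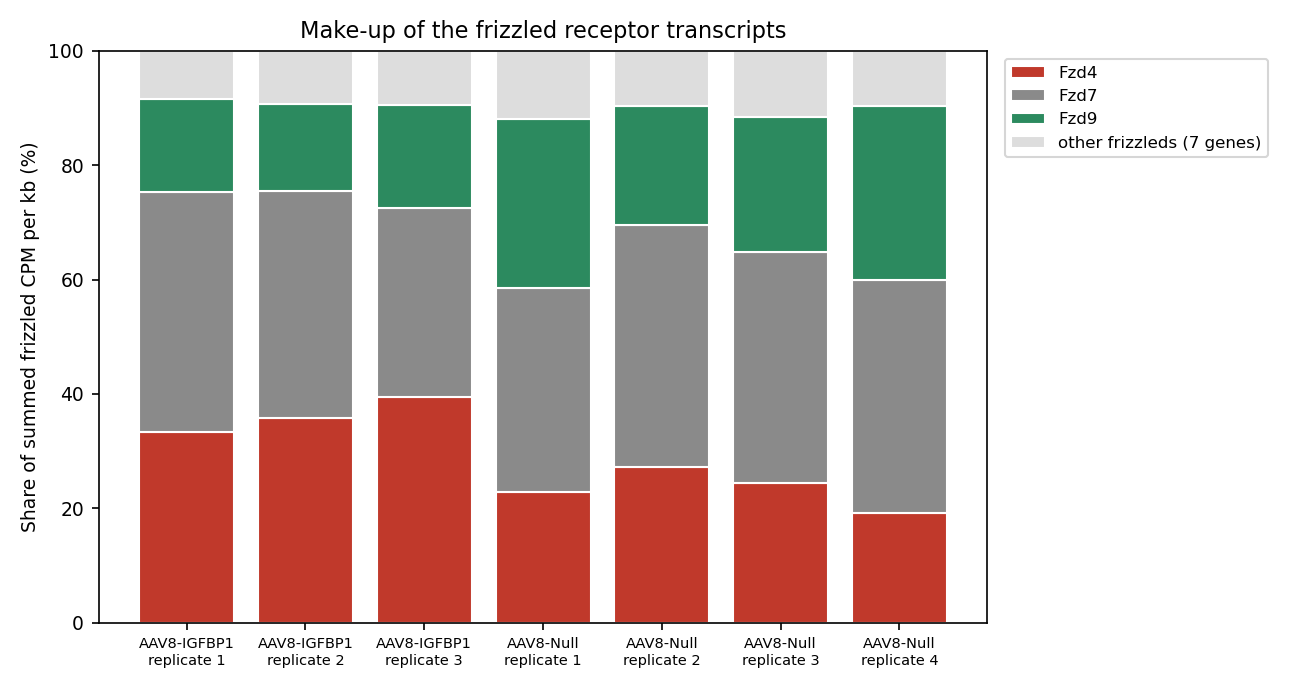
Share (%) of each frizzled gene in the summed frizzled CPM per kb of exon, per quadriceps library, with the 7 scarcest frizzleds pooled. Fzd4 takes 33.3% to 39.5% in the AAV8-IGFBP1 libraries and 19.2% to 27.3% in the AAV8-Null libraries, and Fzd9 takes less in AAV8-IGFBP1.

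The coreceptor genes overlapped between the groups. Lrp6, the coreceptor with the broader embryonic role, had the smallest SE of the 10, with 72.9, 73.4 and 68.5 CPM in AAV8-IGFBP1 replicates 1, 2 and 3, against 70.4, 66.2, 74.7 and 66.3 CPM in AAV8-Null replicates 1 to 4. Its log2 fold change was 0.05 (SE 0.06, 95% interval -0.08 to 0.17), and its CV was 3.79% in AAV8-IGFBP1 and 5.80% in AAV8-Null. Lrp5, the coreceptor best known for bone mass, had 45.0, 37.2 and 35.3 CPM in AAV8-IGFBP1 replicates 1, 2 and 3, against 37.4, 31.0, 35.5 and 33.7 CPM in AAV8-Null replicates 1 to 4. AAV8-IGFBP1 replicate 1 was the high library, and the log2 fold change of Lrp5 was 0.19 (SE 0.10), or 0.08 without that library.

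Wnt5a, a ligand that acts mostly without beta-catenin, had 5.49, 5.85 and 5.14 CPM in AAV8-IGFBP1 replicates 1, 2 and 3, against 6.08, 6.28, 3.98 and 6.65 CPM in AAV8-Null replicates 1 to 4. The groups overlapped only through AAV8-Null replicate 3, which was the lowest of the 7. The log2 fold change was -0.07 (SE 0.17), -0.20 without that library and 0.01 without AAV8-Null replicate 4.

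Dkk3 encodes a secreted glycoprotein, the most divergent of the Dickkopf family, whose other members block LRP5 and LRP6. It had 52.0, 71.6 and 57.2 CPM in AAV8-IGFBP1 replicates 1, 2 and 3, against 33.7, 34.7, 34.2 and 33.1 CPM in AAV8-Null replicates 1 to 4. The AAV8-Null libraries were nearly equal (CV 2.02%), the AAV8-IGFBP1 libraries were spread (CV 16.9%), and the groups lay far apart. The means were 60.3 ± 10.2 CPM in AAV8-IGFBP1 and 34.0 ± 0.686 CPM in AAV8-Null, and the log2 fold change was 0.83 (SE 0.10, 95% interval 0.64 to 1.02). The highest value was that of AAV8-IGFBP1 replicate 2, whose 6 adipocyte markers (Adipoq, Plin1, Lep, Fabp4, Cidec and Pparg) summed to 957 CPM, against 270 and 208 CPM in AAV8-IGFBP1 replicates 1 and 3 and 172 to 329 CPM in AAV8-Null. All 6 markers had a log2 fold change above 0, none was called and none was at 0 counts in any library. The part of adipocytes in the Dkk3 values was not tested. Without AAV8-IGFBP1 replicate 2 Dkk3 was still called, with a log2 fold change of 0.69. Without AAV8-Null replicate 1 it was not called, though the log2 fold change was 0.83 as before.

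**Figure D4:**
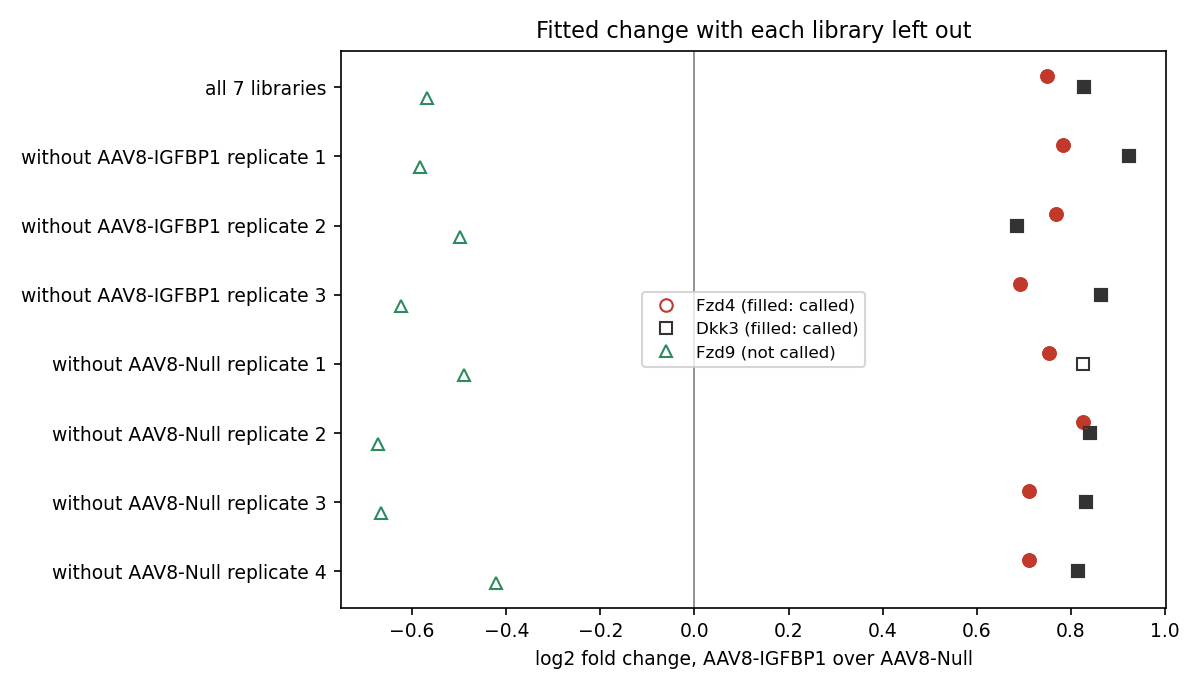
Fitted log2 fold change, AAV8-IGFBP1 over AAV8-Null, of Fzd4 (circles), Dkk3 (squares) and Fzd9 (triangles) with all 7 libraries and with each library left out (rows). Filled symbols passed the test; Fzd4 stays between 0.69 and 0.83, Dkk3 is open only without AAV8-Null replicate 1, and Fzd9 is open in every row.

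Sfrp1, which encodes a secreted frizzled-like decoy that binds Wnt proteins, was the scarcest of the 10. It had 1.87, 1.69 and 0.842 CPM in AAV8-IGFBP1 replicates 1, 2 and 3, against 1.39, 2.11, 1.65 and 1.36 CPM in AAV8-Null replicates 1 to 4, which were 38 to 86 counts in AAV8-IGFBP1 and 56 to 109 counts in AAV8-Null. AAV8-IGFBP1 replicate 3 was the lowest library. The log2 fold change of -0.15 (SE 0.29) was 0.13 without that library and 0.00 without AAV8-Null replicate 2, so its direction rests on these libraries. AAV8-IGFBP1 replicate 3 was also lowest for the sum of the fibroblast markers Pdgfra, Dcn, Lum, Col1a1, Col3a1, Dpp4, Pi16 and Cd34, at 315 CPM. The sum was 548 and 440 CPM in AAV8-IGFBP1 replicates 1 and 2 and 493 to 797 CPM in AAV8-Null. Lum, Pi16 and Cd34 were each lowest in another AAV8-IGFBP1 library. Each of these 8 had a value below 0 for its log2 fold change, and none was called or at 0 counts. The summed tenocyte markers were lowest in AAV8-IGFBP1 replicate 3 too (79.6 CPM, against 170 to 393 CPM in AAV8-Null). So were the macrophage markers (25.5 CPM, against 35.8 to 51.6 CPM in AAV8-Null). The part of these cell types in the Sfrp1 values was not tested.

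Axin2, a scaffold of the complex that breaks down beta-catenin, is itself switched on by beta-catenin and is widely used as a readout of that branch. It had 5.32, 7.16 and 5.93 CPM in AAV8-IGFBP1 replicates 1, 2 and 3, against 8.57, 5.38, 7.20 and 8.50 CPM in AAV8-Null replicates 1 to 4. AAV8-Null replicate 2 lay at the level of the AAV8-IGFBP1 libraries, and AAV8-Null replicate 3 lay just above the highest of them. The means were 6.14 ± 0.937 CPM in AAV8-IGFBP1 and 7.41 ± 1.49 CPM in AAV8-Null, and the log2 fold change was -0.27 (SE 0.17, 95% interval -0.61 to 0.07). With 1 library left out it ran from -0.40 to -0.18.

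Per kb of exon the order of the 10 levels differed between the groups at the top. In AAV8-IGFBP1 it was Dkk3 (17.9 ± 3.03 CPM per kb), Fzd7 (12.4 ± 1.73), Fzd4 (11.7 ± 0.792), Fzd9 (5.31 ± 0.479), Lrp6 (5.24 ± 0.198) and Lrp5 (4.02 ± 0.526), with Axin2 at 1.11 ± 0.170 and Wnt5a, Fzd1 and Sfrp1 below it. In AAV8-Null it was Fzd7 (11.9 ± 1.40 CPM per kb), Dkk3 (10.1 ± 0.204), Fzd9 (7.88 ± 2.06), Fzd4 (6.94 ± 0.755), Lrp6 (5.07 ± 0.294) and Lrp5 (3.53 ± 0.282), with Axin2 at 1.35 ± 0.271 and the same scarce 3 below it. The ranges of Fzd7 and Fzd4, of Fzd9 and Lrp6, and of Wnt5a and Fzd1 overlapped as neighbours in AAV8-IGFBP1. In AAV8-Null those of Dkk3 and Fzd9, of Fzd9 and Fzd4, and of Wnt5a and Fzd1 did. The other neighbours in each order did not overlap between libraries.

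The 5 genes whose profile over the 7 libraries lay nearest to that of Fzd4, by root mean square difference of centred log2 CPM among 10641 genes, were Grap (0.12), Bhlhe40 (0.13), Ifngr2 (0.13), Acvr1b (0.13) and 6430571L13Rik (0.13). Of these Bhlhe40, a transcriptional repressor gene of the clock, had 115, 124 and 128 CPM in AAV8-IGFBP1 replicates 1, 2 and 3, against 57.9, 82.1, 61.8 and 70.3 CPM in AAV8-Null replicates 1 to 4. Acvr1b, an activin receptor gene, had 60.9 to 68.1 CPM in AAV8-IGFBP1 and 39.9 to 45.8 CPM in AAV8-Null. For Fzd9 the nearest 5 were Snai3 (0.10), Myl12a (0.11), Rab11fip5 (0.11), Pde8a (0.13) and Agbl1 (0.13). Myl12a, a myosin regulatory light chain gene, had 77.6 to 100.4 CPM in AAV8-IGFBP1 and 88.6 to 146 CPM in AAV8-Null, with AAV8-Null replicates 1 and 4 high as for Fzd9. A profile includes the difference between the groups, so like differences in these genes follow in part from how they were picked.

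The rest of the Wnt pathway was read from 8 lists filled by role, drawn up with earlier results of these data known. Of 111 listed genes 84 were tested, and 1 was called by edgeR, as lower, beside 0.556% of all genes. At an unadjusted p under 0.05, 5 were higher and 13 lower, where over all genes edgeR had 12.6% (5.8% higher and 6.85% lower), DESeq2 13% and limma-voom 12.7%. These shares are the background for the counts by list that follow. The median log2 fold change was -0.07, with 29 above 0 and 55 below, beside -0.00 over all genes. DESeq2 called 5 of 80, against 3.28% of all genes it tested, and limma-voom called 0 of 84, where 6 were higher and 11 lower at an unadjusted p under 0.05. The groups did not overlap in 14 of the 84, 4 as higher and 10 as lower, beside 12.3% of all genes.

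The called gene was Tnfrsf19, a TNF receptor family gene known as a target of beta-catenin. It fell to 11.6, 10.1 and 12.6 CPM in AAV8-IGFBP1 replicates 1, 2 and 3, against 17.4, 17.1, 14.7 and 18.3 CPM in AAV8-Null replicates 1 to 4. The groups did not overlap, and the log2 fold change was -0.57 (SE 0.10, edgeR adjusted p = 0.0476). The call was lost without AAV8-IGFBP1 replicate 1, 2 or 3 (edgeR adjusted p = 0.158, 0.140 and 0.0566) or AAV8-Null replicate 1, 2 or 4 (0.151, 0.0962 and 0.0844), with limma-voom (0.0658), and with the replicate number as a block (edgeR adjusted p = 0.229, the highest of its 15 alternatives). The lowest was 0.000272, with DESeq2. Of the 6 tested target genes 5 had a log2 fold change below 0 (median -0.40). Ccnd1, the cyclin D1 gene, had 4.63 to 6.02 CPM in AAV8-IGFBP1 and 6.40 to 10.1 CPM in AAV8-Null (log2 fold change -0.64 with SE 0.16, edgeR adjusted p = 0.138). DESeq2 called Ccnd1 (DESeq2 adjusted p = 0.0194), as did edgeR with no count filter (edgeR adjusted p = 0.0135). Its alternatives gave adjusted p-values between 0.0135 and 0.350. For Jun the log2 fold change was -0.32 (edgeR adjusted p = 0.577).

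None of the 13 other receptor and coreceptor genes was called by edgeR or limma-voom, nor any of the 11 that DESeq2 tested. At an unadjusted p under 0.05 edgeR had 1, DESeq2 0 and limma-voom 0. The smallest p-values were those of the receptor kinase gene Ror2 (log2 fold change -0.95, edgeR adjusted p = 0.378), of Fzd10 (-0.83, 0.534) and of Adgra2 (-0.42, 0.569), the WNT7 coreceptor listed under its older symbol Gpr124. Of the 4 receptor turnover and R-spondin receptor genes tested, none was called by any of these tools, and at an unadjusted p under 0.05 edgeR had 1, DESeq2 0 and limma-voom 1. That gene was Rnf43, a ubiquitin ligase gene that removes frizzleds from the surface, with 0.508 to 0.531 CPM in AAV8-IGFBP1 and 0.157 to 0.389 CPM in AAV8-Null (log2 fold change 0.86, edgeR adjusted p = 0.358). Lgr6 and Lgr4 had 0.59 (edgeR adjusted p = 0.574) and -0.11 (0.652).

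Among 11 tested genes of ligands and ligand release edgeR called 0, with 1 higher and 2 lower at an unadjusted p under 0.05. Wnt7b had 2.84, 4.48 and 5.29 CPM in AAV8-IGFBP1 replicates 1, 2 and 3, against 1.85, 1.37, 3.12 and 1.95 CPM in AAV8-Null replicates 1 to 4, so AAV8-Null replicate 3 lay above the lowest AAV8-IGFBP1 library. Its log2 fold change was 1.03 with SE 0.30 (edgeR adjusted p = 0.197), and DESeq2 called it (DESeq2 adjusted p = 0.0297, in a range of 0.0297 to 0.417 over all alternatives). Wnt10b (log2 fold change -1.27, edgeR adjusted p = 0.226) and the R-spondin gene Rspo3 (-1.25, 0.223) were the other genes of the list with an unadjusted p under 0.05. limma-voom called none of the 11, and 3 had an unadjusted p under 0.05 with that tool too.

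Of 8 tested extracellular inhibitors 7 had a log2 fold change below 0, with a median of -0.49, and edgeR called 0, with 3 lower at an unadjusted p under 0.05. Some of those below 0, such as Sfrp4, were lowest in AAV8-IGFBP1 replicate 3, down to 0.310 CPM, with an SE of up to 0.65. Others, such as Frzb and Kremen1, were lowest in another library. AAV8-IGFBP1 replicate 3 also had the lowest summed fibroblast markers (315 CPM), and its part in the median was not tested. Frzb, a secreted frizzled-related decoy gene, had 3.84, 3.70 and 4.21 CPM in AAV8-IGFBP1 replicates 1, 2 and 3, against 6.40, 4.89, 7.12 and 6.94 CPM in AAV8-Null replicates 1 to 4. The groups did not overlap (log2 fold change -0.69, SE 0.15, edgeR adjusted p = 0.0796). Frzb was called by DESeq2 (DESeq2 adjusted p = 0.00375) and, without AAV8-Null replicate 2, by edgeR (edgeR adjusted p = 0.0277), and its alternatives gave adjusted p-values between 0.00375 and 0.254. Kremen1, a receptor gene for Dickkopf proteins (log2 fold change -0.34, edgeR adjusted p = 0.302), and Sfrp4 (-0.80, 0.375) completed the 3. limma-voom called none of the 8, with 2 lower at an unadjusted p under 0.05.

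The 23 cytoplasmic transducers had a median log2 fold change of -0.02, and the beta-catenin degradation ligase gene Btrc (-0.19, edgeR adjusted p = 0.269), the GSK3-binding Frat2 (0.80, 0.302) and the Dishevelled inhibitor Nkd1 (-0.76, 0.302) had the smallest p-values. DESeq2 called Frat2 (DESeq2 adjusted p = 0.0481, in a range of 0.0481 to 0.584), while edgeR and limma-voom called 0 of the 23, with 4 and 5 at an unadjusted p under 0.05. The 8 planar polarity genes (median -0.04) and 11 nuclear factors (median -0.02) had 0 calls by edgeR, DESeq2 and limma-voom, and 2 of each list had an unadjusted p under 0.05 in each tool. The formin gene Daam2 had -0.43 on the log2 scale (edgeR adjusted p = 0.274), the membrane protein gene Vangl1 had -0.45 (0.307) and Daam1 had -0.26 (0.444). Among nuclear factors Tcf7l1, a TCF that mostly represses, had -0.54 (edgeR adjusted p = 0.230), and the corepressor genes Tle4 and Tle1 had 0.20 (0.355) and -0.18 (0.514).

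**Figure D5:**
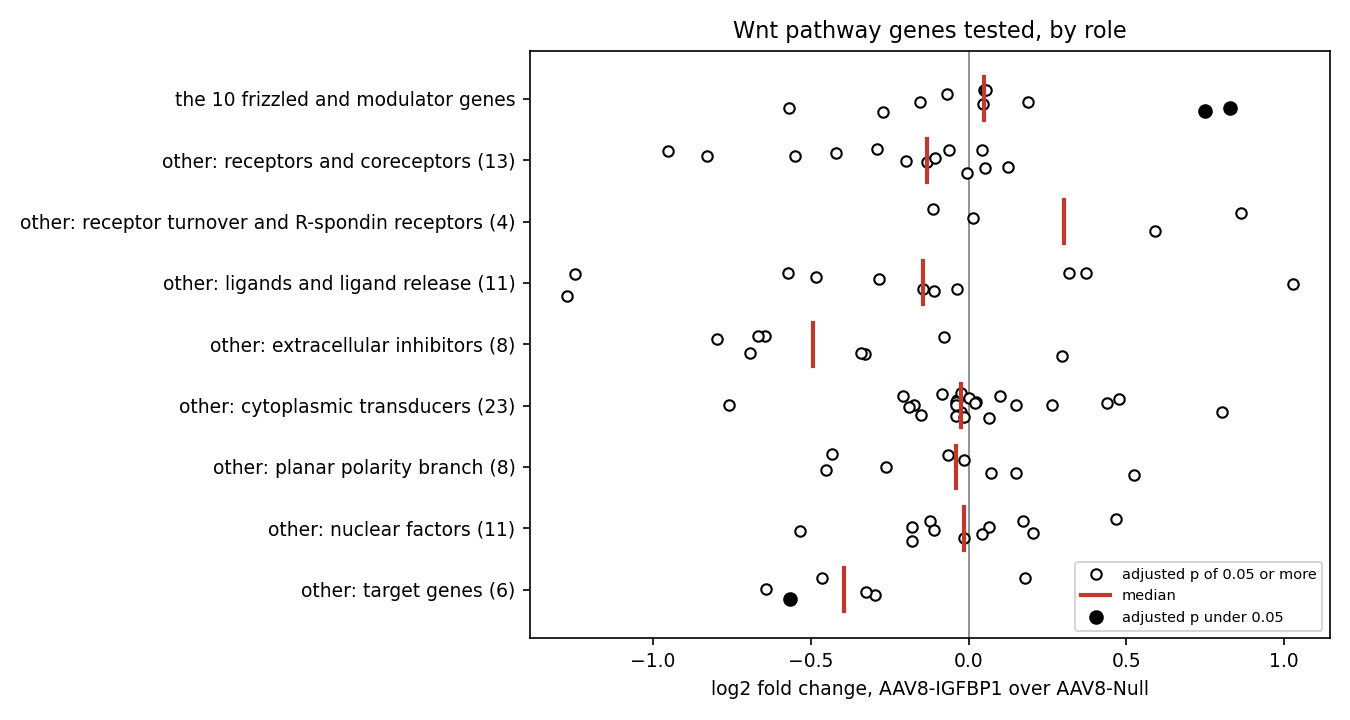
Log2 fold change, AAV8-IGFBP1 over AAV8-Null (horizontal axis), of the 10 genes and of 84 other tested Wnt pathway genes by role, with the number tested in brackets. Each point is a gene, filled where it passed edgeR's test (Fzd4, Dkk3 and Tnfrsf19), and red lines are medians, lowest for the extracellular inhibitors (-0.49).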

How the data were processed

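Quadriceps RNA was profiled in 7 libraries, assigned to their groups by title (3 AAV8-IGFBP1, 4 AAV8-Null). The values deposited by the authors are estimated counts, with 1 row for each gene symbol. The submitters' processing notes name STAR 2.7.9a, Salmon 1.10.1, Trim Galore 0.6.7, cutadapt 3.4 and R 4.2.2, and the build GRCm39, without saying what each was used for. The annotation release and the strand setting are not given in the sources used here; reads of overlapping genes may therefore be shared.

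Counts were rounded to whole numbers. The test was edgeR 4.0.16 in R 4.3.3: filterByExpr defaults (minimum count 10, minimum total 15), TMM scaling, estimateDisp, robust glmQLFit and glmQLFTest of the group term, with Benjamini-Hochberg adjustment over 14935 genes and a threshold of 0.05. SEs are the log2 fold change over the square root of F, and 95% intervals are 1.96 SEs wide on each side. The factor 1.96 takes no account of the few libraries, so the intervals are nominal and narrower than true 95% intervals. One that just clears 0, as for Lrp5, does not mean that the test was passed. CPM uses the TMM-scaled totals, and log2 CPM a prior count of 2. Levels per kb use the union of GENCODE M21 exons (GRCm38), all isoforms, so they are approximate. The members and gene lists were chosen with earlier results of these data known. Named beside the members are Igfbp1, called pathway genes, up to 3 genes per list with the smallest unadjusted p, and the 5 genes (mean log2 CPM 1 or above) nearest in profile to the member with the smallest p in each direction. Other genes named are markers. No 2 libraries of a group agreed within sampling noise (chi-square over its degrees of freedom, 22.2 to 60.0). The fit was tested on simulated data. Alternatives were other scalings, filters and tools (limma 3.58.1, DESeq2 1.42.0), a replicate block and each library left out. Depth limits the scarce genes: a count of 0 allows 3 counts, or 0.0580 to 0.0786 CPM.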

Additional observations from a re-analysis of the deposited data

Results flagged for a closer look

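In AAV8-Null, 2 of the 35 genes checked had a library that lay far from the other 3, where chance gives about 1 in 20 groups, a rate near that found. Igfbp1 had 0.195 CPM in AAV8-Null replicate 4 and 0 in the other AAV8-Null libraries. With the other 3 at 0 any count is flagged, so the rate does not apply to Igfbp1. Lgr6, an R-spondin receptor gene, had 0.232 CPM in AAV8-Null replicate 2 and 0.681 to 0.730 CPM in AAV8-Null replicates 1, 3 and 4.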

How the results depend on the processing

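The log2 fold changes of the 10 genes moved by less than their spread between replicates in all 150 alternative values, and Fzd4 and Dkk3 were called under every alternative scaling, filter and tool tried. The count of 2 called ran from 1 to 2 with 1 library left out. The count over all genes, 83, was 451 with DESeq2 and 306 with no count filter, and ran from 19 to 86 with 1 library left out: 28 and 23 without AAV8-IGFBP1 replicates 1 and 2, 19 and 52 without AAV8-Null replicates 1 and 3. Of the other Wnt pathway genes, 1 at first, DESeq2 called 5, limma-voom 0 and the fit with no count filter 3, and 0 to 1 were called with 1 library left out. With the replicate number as a block, on the 6 libraries numbered 1 to 3, 20 genes were called, 0 of the 10 and 0 of the other Wnt pathway genes. In that fit the log2 fold changes of Fzd4 and Dkk3 were 0.72 and 0.80. The deviations of same-numbered libraries from their group means had correlations of -0.10, 0.07 and -0.06, and those of libraries with unlike numbers -0.11 to 0.15. So few libraries cannot show whether any were paired, and the labels name no pairing. The 24 other pathway genes named gave 353 alternative values, 338 on the same side of the threshold, 8 that lost a call and 7 that gained one, none with the opposite sign. The cause was not tested.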
